A study of Drosophila melanogaster with 3 samples.

Results

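Aminoacyl-tRNA synthetases join each amino acid to its transfer RNA (tRNA), the step that fixes which amino acid a codon stands for. Animal cells use separate enzymes for the cytosol and for mitochondria, which translate their own genome, and most of the mitochondrial enzymes are encoded in the nucleus by genes of their own. In mammals some cytosolic synthetases are held together in a multisynthetase complex by the scaffold proteins AIMP1, AIMP2 and AIMP3. The genes described here are the protein-coding genes of the main chromosomes whose symbol consists of amino acid codes followed by RS, with or without the ending -m or alpha or beta. This rule found 35 of 13945 genes. Of these, 20 had no -m ending and are called cytosolic below, and 15 had the ending and are called mitochondrial. Single animal genes for GlyRS and LysRS are known to give both enzymes, so the names separate the compartments only in part. The rule found no -m gene for 5 of the cytosolic members, GlnRS, GlyRS, HisRS, LysRS and ThrRS. GluProRS joins the enzymes for glutamate and proline in a single protein.

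Binding was measured by chromatin immunoprecipitation and sequencing (ChIP-seq) with an anti-GFP antibody. The chromatin came from whole Drosophila melanogaster embryos aged 0 to 24 hours of the strain Doc3-GFP, which expresses the T-box transcription factor Doc3 fused to eGFP. The labels give 3 biological replicates of a single group, with no other genotype or treatment, and do not state which promoter drives the fusion. No control sample was analysed here. Whole embryos mix all tissues, so a promoter bound in few cells and one bound weakly in many cannot be told apart. The authors deposited a thresholded and a longer ranked peak list per replicate, and lists for the whole series, of which the one they marked conservative is used first. It held 2793 peaks. The thresholded lists held 1774, 2486 and 1812 peaks in replicates 1, 2 and 3, and the ranked lists 30159, 59389 and 141211 regions. These lists give no read numbers, so sequencing depth is unknown. The signal of a peak is the strength given by the authors' peak caller whose scale the headers leave unnamed, so values are compared within a list alone. A gene was counted as having a promoter peak when a summit lay within 500 bp of any of its annotated transcription start sites (TSSs).

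Promoter peaks lay mostly at cytosolic synthetase genes. In the conservative list 10 of 20 cytosolic genes had one (50%, 95% Wilson interval 29.9 to 70.1%), namely TrpRS, GluProRS, GlnRS, beta-PheRS, MetRS, AsnRS, IleRS, ArgRS, AspRS and TyrRS. Of the 15 mitochondrial genes only AspRS-m did (6.67%, interval 1.19 to 29.8%). Among all coding genes, 21.4% had a promoter peak by the same rule. Genes with a peak in this list are called bound below, and the others unbound. The thresholded lists gave the same order. In replicate 1, 9 cytosolic and 2 mitochondrial genes had a peak against 15.9% of all genes, in replicate 2 the counts were 11 and 2 against 19.8%, and in replicate 3 they were 9 and 1 against 15.6%. The mean share was 48.3% ± 5.77 (SD, n = 3) for cytosolic and 11.1% ± 3.85 (SD, n = 3) for mitochondrial genes, and the difference was 37.2 ± 5.09 percentage points (SD, n = 3). The cytosolic share was higher in 3 of 3 replicates, and the difference was larger than the spread between them. An exact two-sided sign-flip permutation test gave p = 0.25, the smallest value that 3 replicates allow. Genes are not replicates, so no test was made across them.

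**Figure D1:**
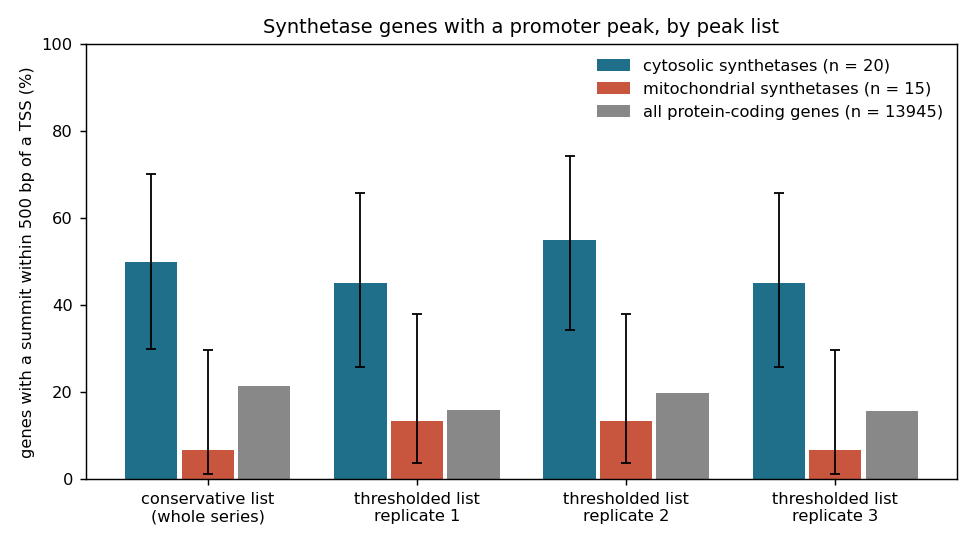
Share of cytosolic and mitochondrial synthetase genes, and of all protein-coding genes, with a summit within 500 bp of a TSS (%, vertical axis) in the conservative list and in the thresholded list of each replicate; error bars are 95% Wilson intervals, which cover counting error only. The cytosolic bars stand at 45.0 to 55.0% and the mitochondrial bars at 6.67 to 13.3%.

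Promoter sequences are shown for 4 genes with a conservative peak and 1 without. They run from 150 bases before the TSS to 50 bases into the transcript, on the sense strand, and come from the RefSeq genome of release 6, the assembly that dm6 names. The first 3 are the cytosolic promoters with the highest signal, the fourth is the only mitochondrial one with a conservative peak, and the last is ArgRS-m, whose cytosolic partner ArgRS had a peak while it had none. Capitals mark 2 elements, searched on both strands: TATCGA, the core of the DNA replication-related element TATCGATA, and GGTCACACT, a core promoter sequence known as Motif 1.

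TrpRS (chr3R:9266855-9267054, minus strand): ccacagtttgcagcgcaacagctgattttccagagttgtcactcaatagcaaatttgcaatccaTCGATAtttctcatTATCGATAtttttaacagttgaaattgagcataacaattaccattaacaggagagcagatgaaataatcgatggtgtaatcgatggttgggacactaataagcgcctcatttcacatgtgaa
GluProRS (chr3R:23958342-23958541, minus strand): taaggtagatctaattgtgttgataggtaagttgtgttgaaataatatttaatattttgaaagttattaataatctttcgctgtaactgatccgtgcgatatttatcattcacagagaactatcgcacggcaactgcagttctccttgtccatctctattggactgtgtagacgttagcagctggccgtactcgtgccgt
GlnRS (chr3R:25265672-25265871, minus strand): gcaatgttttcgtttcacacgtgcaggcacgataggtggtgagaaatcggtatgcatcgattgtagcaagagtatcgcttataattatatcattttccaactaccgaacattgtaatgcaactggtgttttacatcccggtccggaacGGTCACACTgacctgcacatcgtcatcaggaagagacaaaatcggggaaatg
AspRS-m (chr2L:16826928-16827127, plus strand): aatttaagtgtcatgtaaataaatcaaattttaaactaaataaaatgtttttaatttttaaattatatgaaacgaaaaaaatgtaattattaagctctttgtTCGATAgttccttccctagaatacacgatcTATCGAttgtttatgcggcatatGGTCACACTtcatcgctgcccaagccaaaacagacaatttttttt
ArgRS-m (chr3R:7886895-7887094, plus strand): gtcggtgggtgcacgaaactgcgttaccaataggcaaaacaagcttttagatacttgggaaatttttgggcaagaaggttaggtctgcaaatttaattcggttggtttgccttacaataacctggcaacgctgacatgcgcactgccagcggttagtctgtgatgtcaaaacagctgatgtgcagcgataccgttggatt

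TrpRS holds a full TATCGATA, whose centre lay 17.5 bp from the summit of its strongest conservative peak. GlnRS and AspRS-m hold GGTCACACT across or just after the TSS, with its centre 67 bp and 34 bp from the summit. GluProRS and ArgRS-m hold neither element in the printed window, although the first had one of the strongest peaks of the family and the second had none, so these elements do not separate the printed promoters with a peak from the one without. A match of letters is a description and does not show that a factor was bound there.

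The 3 strongest peaks of the family belonged to TrpRS, GluProRS and GlnRS. TrpRS, which charges tryptophan, led with a signal of 597, rank 126 of the 2793 conservative peaks (3R from 9266824 to 9267106, summit 51 bp upstream of the TSS). Its highest promoter signal in the ranked lists was 116, 257 and 220.3 in replicates 1, 2 and 3, above 98.3, 98.5 and 98.8% of coding genes. It was the highest of the 35 genes in all 3 replicates. GluProRS had a conservative signal of 474 (rank 256, 3R from 23958357 to 23958607, summit 109 bp upstream) and ranked signals of 68.7, 191 and 192. GlnRS, the glutamine enzyme, had a conservative signal of 452 (rank 291, 3R from 25265653 to 25265913, summit 65 bp upstream) and ranked signals of 97.6, 189 and 155. GlnRS stood above GluProRS in replicate 1 and below it in replicates 2 and 3, so their order was not stable.

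Intermediate peaks lay at 2 more cytosolic genes. beta-PheRS, which encodes a subunit of the phenylalanine enzyme, had a conservative signal of 305 (3R from 24252424 to 24252907, summit 13 bp downstream of the TSS) and ranked signals of 57.4, 124 and 85.9. alpha-PheRS, which encodes the other subunit of the same enzyme, had no promoter peak in the conservative list or in any thresholded list, and its ranked signals of 18.2, 40.9 and 24.2 were lower in every replicate. MetRS, the methionine enzyme, had a conservative signal of 299 (2R from 18850440 to 18850923, summit 83 bp upstream) and ranked signals of 53.2, 114 and 116. Both beta-PheRS and MetRS were called in all 3 thresholded lists.

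The remaining cytosolic peaks were weaker than the median of 227 over all genes with a conservative promoter peak. AsnRS had a conservative signal of 207 (2L from 19131935 to 19132418) and ranked signals of 33.4, 83.1 and 61.4. IleRS had 181 (3L from 22288419 to 22288902) and ranked signals of 25.3, 61.0 and 89.6. ArgRS had 179 (X from 15844164 to 15844647) and ranked signals of 33.3, 66.2 and 83.7. All of these genes lay between the percentiles 80.6 and 90.6 in each replicate. AspRS had 162 (2R from 12880088 to 12880571, summit 46 bp downstream of one of its 3 TSSs) and ranked signals of 40.8, 87.0 and 46.1. AsnRS missed the thresholded list of replicate 1 and AspRS that of replicate 3, while IleRS and ArgRS were in all 3 lists.

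TyrRS and AlaRS showed the limits of a single list. TyrRS, the tyrosine enzyme, entered the conservative list with the weak signal of 72.7 (rank 2312, 3L from 16418882 to 16419365, summit 178 bp downstream of the TSS). No thresholded list held it, and its strongest ranked regions had summits at -492, 77 and 8 bp from the TSS in replicates 1, 2 and 3, so the replicates did not place it at one position. AlaRS, the alanine enzyme, was absent from the conservative list, whose nearest summit lay 1125 bp away. All 3 thresholded lists nevertheless held an AlaRS promoter peak. In the ranked lists AlaRS had signals of 51.0, 106 and 87.1 and percentiles of 89.9, 90.0 and 90.4. AlaRS was the only gene of the family that was called in every replicate and missing from the conservative list.

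AspRS-m, the mitochondrial aspartate enzyme, was the only mitochondrial gene with a conservative promoter peak and the only one called in all 3 thresholded lists. Its conservative signal was 294 (rank 716, 2L from 16826976 to 16827134, summit 25 bp upstream of the TSS), with a width of 159 bp, the narrowest of the 11 peaks. The ranked signals were 50.7, 136 and 97.5, above the medians of 47.3, 97.8 and 79.7 for all genes with a conservative promoter peak. It was called in all 3 replicates, and in each of them it stood higher than AspRS, with a mean difference, AspRS minus AspRS-m, of -5.96 ± 3.46 percentile points (SD, n = 3). No other coding gene had a TSS within 500 bp of it.

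Of the 24 genes without a conservative promoter peak, 10 were cytosolic and 14 mitochondrial, and 20 were in no thresholded list either. The 4 exceptions were AlaRS in all replicates, ThrRS and AsnRS-m in replicate 2, and LeuRS-m in replicate 1. How many of all unbound coding genes are in no thresholded list was not computed, so the count of 20 cannot be called high or low. ThrRS (threonine) had ranked signals of 11.7, 40.8 and 28.2, and LeuRS-m (mitochondrial leucine) had 34.4, 31.0 and 33.3. AsnRS-m (mitochondrial asparagine) had no region in replicate 1 and signals of 58.4 and 35.8 in the other 2. ThrRS, AsnRS-m and LeuRS-m each had their highest percentile, 73.9, 80.9 and 85.4, in the replicate that called them. The nearest conservative summit was over 5000 bp away for 11 of the 14 mitochondrial and for 5 of the 10 cytosolic genes. The share of all coding genes this far from a summit was not computed, so these counts cannot be called high or low. After AlaRS, SerRS had the highest mean percentile of the unbound cytosolic genes, from 68.0, 81.4 and 82.0, although alpha-PheRS (74.5) and CysRS (69.5) stood above it in replicate 1. CysRS, GlyRS and HisRS (cysteine, glycine and histidine) ranged from 9.75 to 78.9, and ValRS had a region in replicate 1 alone. The unbound mitochondrial genes ranged from 9.75 to 85.4. AlaRS-m, ArgRS-m, AsnRS-m, CysRS-m, MetRS-m, SerRS-m, TrpRS-m and TyrRS-m were each at the lowest rank in 1 replicate, without a region there. IleRS-m and ProRS-m each had a region in a single replicate.

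Weak regions are kept in the ranked lists, and these gave a level for every gene. Each gene received the highest signal whose summit lay within 500 bp of a TSS, expressed as its percentile among all 13945 coding genes, and genes without any region share the lowest rank (23.3, 16.6 and 9.75 in replicates 1, 2 and 3). The median percentile of the 20 cytosolic genes was 81.8, 81.5 and 82.1 in the 3 replicates. That of the 15 mitochondrial genes was 63.9, 43.3 and 40.7, around the value of 50 that marks the median of all genes. The difference between the class medians was 32.5 ± 12.8 points (SD, n = 3), ranging from 17.9 to 41.5, with the cytosolic median higher in 3 of 3 replicates (exact two-sided sign-flip permutation test, p = 0.25, the smallest possible). The cytosolic median varied little, whereas the mitochondrial median was higher in replicate 1 than in the others. The 2 classes overlapped in every replicate. Between 3 and 6 cytosolic genes lay above the highest mitochondrial gene, AspRS-m, and the lowest gene of both classes had no region. Above percentile 75 lay 11, 12 and 12 cytosolic genes and 3, 2 and 3 mitochondrial genes.

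**Figure D2:**
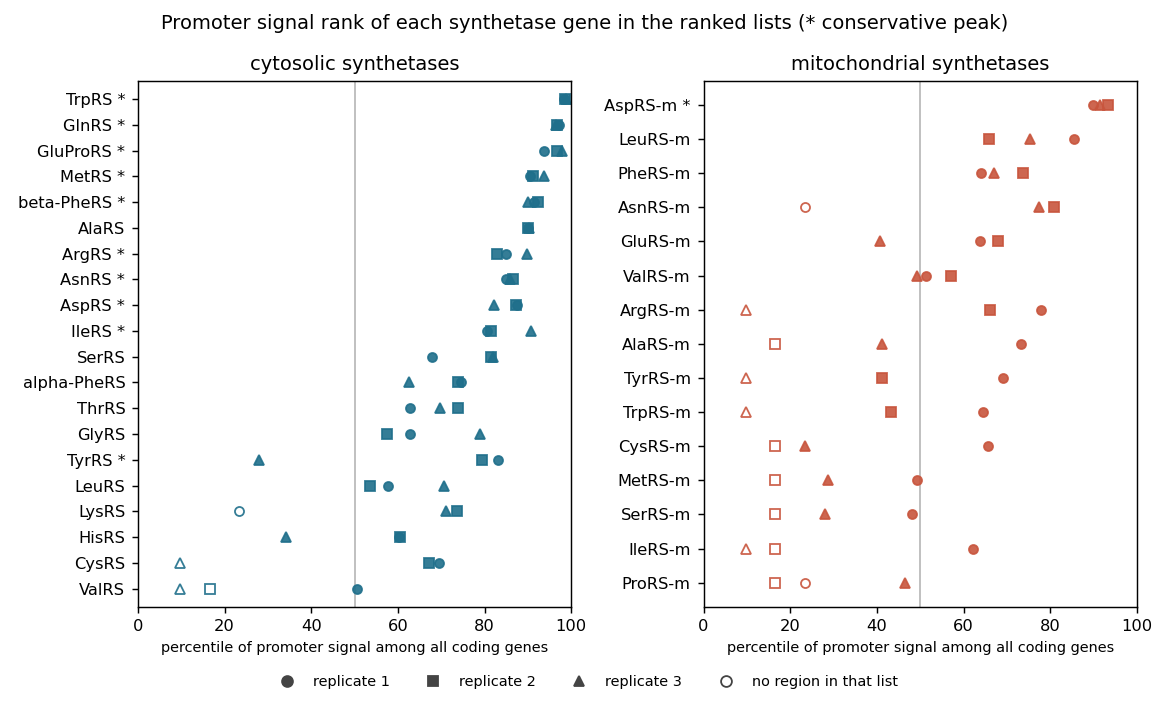
Percentile of the highest promoter signal of each synthetase gene among 13945 coding genes (horizontal axis) in the ranked list of each replicate, ordered by the mean; open symbols are genes with no region in that list, asterisks mark a conservative promoter peak, and the grey line is the median of all genes. Cytosolic genes gather to the right, with medians of 81.5 to 82.1, and most mitochondrial genes spread widely between replicates.

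The number of genes with any promoter region pointed the same way. In replicate 1, 19 cytosolic and 13 mitochondrial genes had a region against 53.3% of all genes. In replicate 2 the counts were 19 and 9 against 66.8%, and in replicate 3 they were 18 and 11 against 80.5%. The mitochondrial share was above that of all genes in replicate 1 (86.7%) and below it in replicates 2 and 3 (60.0 and 73.3%). A region was found in all 3 lists for 17 cytosolic genes but for 5 mitochondrial ones, AspRS-m, GluRS-m, LeuRS-m, PheRS-m and ValRS-m. The share of all coding genes with a region in all 3 lists was not computed. The lists differ greatly in length, so presence in a ranked list is a weak criterion.

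Each mitochondrial enzyme was then set beside the cytosolic enzyme for the same amino acid, with GluProRS serving both glutamate and proline and the higher of the subunits standing for phenylalanine. In the conservative list the cytosolic gene alone had a peak in 9 of 15 pairs, both genes in 1 pair, neither in 5 and the mitochondrial gene alone in none. With alpha-PheRS standing for phenylalanine, a choice made after the values were seen, the first count was 8. By percentile the cytosolic gene was higher in all 3 replicates in 11 pairs, or in 10 with alpha-PheRS, which exceeded PheRS-m by 10.6 and 0.212 points in replicates 1 and 2 and gave -4.63 in replicate 3. The widest gaps were those of GluProRS over ProRS-m (67.2 ± 14.7 points, SD, n = 3), MetRS over MetRS-m (60.2 ± 17.2) and TrpRS over TrpRS-m (59.3 ± 27.9). IleRS over IleRS-m (54.8 ± 32.4), AlaRS over AlaRS-m (46.4 ± 28.4) and SerRS over SerRS-m (46.3 ± 23.4) followed, although neither alanine nor serine gene had a conservative peak. In each of these pairs the mitochondrial gene had no region in at least 1 replicate and took the lowest rank there. The size and spread of these gaps therefore depend partly on that floor, which differs between lists. ArgRS-m, AsnRS-m, TyrRS-m and CysRS-m also lacked a region in 1 replicate each, and CysRS lacked one in replicate 3. Smaller gaps were those of GluProRS over GluRS-m (38.6 ± 16.1), AsnRS over AsnRS-m (25.3 ± 31.5), TyrRS over TyrRS-m (23.5 ± 13) and beta-PheRS over PheRS-m (23.0 ± 4.46). CysRS was higher than CysRS-m in 2 replicates (13.5 ± 33.3). In 3 pairs the mitochondrial gene was the higher one in every replicate, AspRS-m, LeuRS-m and ValRS-m, and LeuRS minus LeuRS-m came to -15.0 ± 11.6 points and ValRS minus ValRS-m to -26.9 ± 22.6. This last gap was close to 0 in replicate 1, and ValRS had no region in the other 2. For several pairs the spread between replicates was as wide as the gap, such as ArgRS over ArgRS-m (34.6 ± 39.7).

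**Figure D3:**
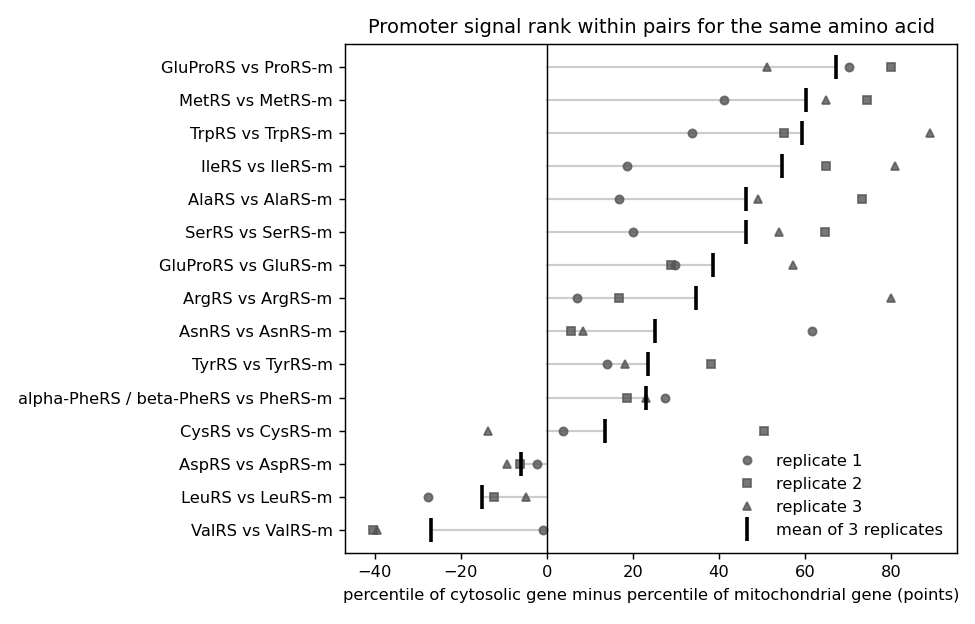
Difference in percentile of promoter signal between the cytosolic and the mitochondrial synthetase gene for the same amino acid (points, horizontal axis; positive where the cytosolic gene is higher), for each replicate and as the mean of the 3 replicates. In 11 of 15 pairs all 3 replicates lie to the right of 0.

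Grouping the cytosolic enzymes by their place in the multisynthetase complex of mammals, a grouping made after the peaks were known, put a conservative peak at 6 of 8 genes for complex members (ArgRS, AspRS, GlnRS, GluProRS, IleRS and MetRS, but not LeuRS or LysRS). Of the 12 cytosolic genes outside that complex, 4 had one (33.3%), AsnRS, TrpRS, TyrRS and beta-PheRS, and of all coding genes 21.4% did. All 8 genes for complex members have a TSS of another coding gene within 500 bp, an arrangement in which 42.1% of all coding genes had a peak. LeuRS had ranked percentiles of 57.7, 53.4 and 70.5, and LysRS had no region in replicate 1 and percentiles of 73.7 and 71.1 in the others. Of the scaffold genes, AIMP3 had a strong peak (conservative signal 319, summit 13 bp downstream of the TSS, called in all 3 replicates), and AIMP1 and AIMP2 had none.

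Many of these peaks lay at promoters shared with another gene. The strongest peak of 9 of the 11 bound genes also lay within 500 bp of a TSS of another coding gene (81.8%), against 61.8% of all genes with a conservative promoter peak, and in all 9 the other gene was on the opposite strand. TrpRS shared its peak with Vps16A, which encodes a vesicle tethering protein, GluProRS with the clathrin adaptor gene AP-1sigma, GlnRS with RIOK2, a kinase of ribosome maturation, and AsnRS with the dynactin gene DCTN6-p27. The others were MetRS with CG15084, ArgRS with CG8578, AspRS with Nmda1, IleRS with Hem and TyrRS with CG33158. TrpRS, MetRS, AsnRS, ArgRS and AspRS each had 2 conservative promoter peaks, and the distances given are those of the stronger one. At GlnRS the summit was 65 bp from the synthetase and 58 bp from RIOK2. At ArgRS and AsnRS it was 261 and 223 bp from the synthetase but 70 and 146 bp from the other gene. A peak that lies near the TSSs of both genes cannot be given to one of them. At IleRS the summit was 4 bp from the synthetase and 466 bp from Hem. At TyrRS it was 178 bp from the synthetase and 473 bp from CG33158. In these cases the peak counts as shared only because the limit was 500 bp. When each peak was given only to the gene with the nearest TSS, 7 cytosolic genes and AspRS-m kept a peak, against 15.3% of all genes. Only beta-PheRS and AspRS-m had a peak with no TSS of another coding gene within 500 bp of its summit.

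**Figure D4:**
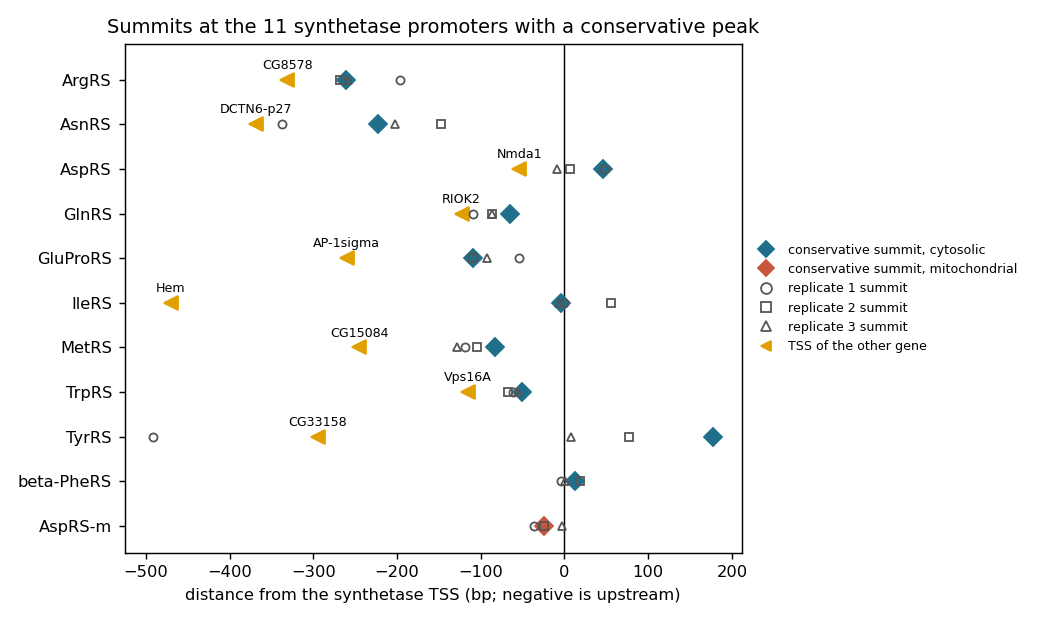
Distance of the strongest conservative peak's summit and of each replicate's strongest ranked summit from the TSS of the 11 synthetase genes with a conservative promoter peak (bp, horizontal axis; negative is upstream), with the TSS of the other coding gene that shares the peak. The summits of TrpRS stay within 12 bp of each other across replicates, and those of TyrRS spread over 569 bp.

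The arrangement of the genes itself differed between the classes. Another coding gene had a TSS within 500 bp for 16 of 20 cytosolic genes (80.0%), for 7 of 15 mitochondrial genes (46.7%) and for 30.9% of all coding genes. Genes arranged in this way carried conservative peaks more often in the genome as a whole, 42.1% against 12.1% of genes with no such neighbour, where a shared peak counts for both genes. Within the first kind, 9 of 16 cytosolic genes had a peak (56.2%, Wilson interval 33.2 to 76.9%). This interval includes the 42.1% of all such genes. None of the 7 mitochondrial genes of the first kind had a peak (Wilson interval 0 to 35.4%). Within the second kind, 1 of 4 cytosolic genes and 1 of 8 mitochondrial genes (12.5%) had one. The cytosolic excess over all genes was thus smaller among genes with a near neighbour than over the whole set, and in the other kind the numbers were too few to compare. How far the arrangement accounts for the difference between the classes was not tested.

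Elements of core promoters were sought from 250 bp before to 50 bp after each TSS, on both strands. TATCGATA, which reads the same on both strands, lay near a TSS of 5 of 20 cytosolic genes (AlaRS, ArgRS, AspRS, IleRS and TrpRS), of 1 of 15 mitochondrial genes (PheRS-m) and of 10.2% of all coding genes. Among the 11 bound genes the share was 36.4%, near the 35.4% of all genes with a conservative promoter peak. In IleRS, AspRS and TrpRS the nearest copy was centred 34.5, 60.5 and 17.5 bp from the summit. The copy of ArgRS within the window was 230.5 bp from the summit of its stronger peak. A further copy beyond the window, towards CG8578, was 42.5 bp from that summit. Distances to the second conservative peak of ArgRS, AspRS and TrpRS were not measured. In AlaRS a copy of TATCGATA was centred 15.5 bp upstream of a TSS. PheRS-m held it at the TSS, 3.5 bp into the transcript, without a conservative peak there, and its ranked percentiles were 63.9, 73.7 and 67.1.

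GGTCACACT lay near a TSS of GlnRS, beta-PheRS, AspRS-m, AsnRS-m and ProRS-m, against 6.78% of all coding genes. The first 3 of these had a conservative peak and no TATCGATA in the window, although the printed AspRS-m sequence holds the core TATCGA at 2 places. They make up 27.3% of the 11 bound genes, against 10.5% of all genes with a conservative promoter peak. AsnRS-m and ProRS-m had no conservative peak. The T-box core GGTGTGA, the sequence that proteins of the Doc3 family recognise, was in the window of 0 of the 35 genes, which allows a share of up to 8.57%, and in that of 3.68% of all coding genes. This core shares the letters GTGTGA with the reverse complement of GGTCACACT. The share of all genes lies under that limit, so a lack was not detectable. Within 500 bp on either side of a TSS the core lay at 3 of 35 genes, AlaRS, TyrRS and ProRS-m, and at 9.49% of all coding genes.

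In the other series-level lists the cytosolic share was again above the mitochondrial one. In the longest of them, of 3513 peaks, 13 cytosolic (65.0%) and 4 mitochondrial genes (26.7%) had a promoter peak against 25% of all genes, so there the mitochondrial share was no longer below that of all genes. AlaRS, CysRS, LysRS, SerRS, AsnRS-m, LeuRS-m and PheRS-m were added there, and TyrRS was lost. The lists of 2456 and 2301 peaks gave 10 and 2 genes against 19.6%, and 9 and 1 against 18.3%. All of these lists were made from the same 3 replicates, so they do not add independent evidence.

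Genes that act before and after charging were listed with earlier results of these data known. Of 31 symbols 27 were found, and 8 of them had a conservative promoter peak (29.6%), not far from the 21.4% of all coding genes. Gcn2, the kinase that senses uncharged tRNA, had a signal of 236 and eIF2alpha, its substrate, 126, the first at a promoter shared with Ugt35D1, while crc, the fly ATF4, was called in 2 replicates but not in the conservative list, and the related kinase gene PEK had no peak in any of these lists. RNaseZ, which trims the 3' ends of tRNA precursors, had a signal of 291 at a promoter shared with CG12909. In translation elongation, eEF1gamma (306) and the mitochondrial factors mEFTs (264, shared with Dhc36C) and mEFG1 (195) had peaks, and eEF1alpha1, eEF1alpha2, eEF1beta, eEF1delta, mEFTu1 and mEFTu2 had none in the conservative list. GatC, a subunit of the amidotransferase that makes mitochondrial glutaminyl-tRNA, had a signal of 181 at a promoter it shares with PolG2 and Polr2C, and its partners GatA and GatB had none. The remaining genes without a conservative peak were Slimp, Dtd, rswl, scu, Rpp30, Nsun2 and Mt2.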

How the data were processed

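ChIP-seq peak lists of 3 biological replicates were used, 1 group in all. Per the labels, chromatin was sonicated and the genome build is dm6. Per the file headers, each replicate's lists derive from its own alignment and the series-level lists from all 3, together with further files the headers do not describe. Thresholding used the irreproducible discovery rate (IDR), per the file headers. Which aligner and caller were run is not given in the sources used here. The signal value (column 7) is a score as deposited by the authors, comparable only within a list. Genes and TSSs came from Ensembl release 115 (annotation 6.54, genome release 6). Python 3.11.15, numpy 2.4.6, pandas 2.3.3, scipy 1.17.1 and matplotlib 3.10.9 were used. Of several peaks at a gene the strongest was described. The search for summits was tested on simulated data. Wilson intervals cover counting error only.

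The members and lists were chosen with earlier results of these data known. Full values are given for the bound genes, mean differences for the pairs and ranges for other genes, and sequences are shown for the bound genes of each class with the highest signal and for the first unbound partner in alphabetical order of amino acid. Alternatives changed the distance, list, TSS, gene assignment, members and motif window, and left out each replicate. Series-level ranked lists were not used. The p-values reflect only that the differences had the same sign in 3 replicates of 1 strain, and not how widely they spread.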

Additional observations from a re-analysis of the deposited data

How the results depend on the processing

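The cytosolic count of 10 stayed between 7 and 13 and above the share of all genes under every alternative distance, list and assignment. Left to the 4 cytosolic genes with no other coding TSS within 500 bp, it was 1, a split chosen after seeing the data. The mitochondrial count of 1 became 4 in the longest series-level list and 2 in the next one, and 2 in the thresholded lists of replicates 1 and 2, and it was 0 among the 7 mitochondrial genes with a near neighbour. Among conservative peaks overlapped in both other lists when a replicate was left out, the cytosolic count ranged from 7 to 8 and the mitochondrial count was 1. The share of all genes fell as well under this rule, from 21.4% to at most 14.3%. The cytosolic share was 35 to 40%, against 50% in the main count, and the mitochondrial share stayed at 6.67%. The cytosolic minus mitochondrial difference in median percentile, 32.5 points, ranged from 27.6 to 34.7 over other distances and filters and from 28.0 to 39.8 without a replicate. The cytosolic gene was higher throughout in 11 of 15 pairs, and in 11 to 12 without a replicate. The share of genes with TATCGATA was 25% for cytosolic and 6.67% for mitochondrial genes, and 45.0 and 26.7% for the 6-base core, against 31.3% of all genes. Samples could not be paired between groups because they form 1 group, and the classes were compared within each replicate. With no read numbers, a weak or missing peak cannot be told from low depth.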

Other observations

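Synthetases fall into catalytic classes I and II by the fold of their active site. Among cytosolic genes, 6 of 9 of class I and 3 of 10 of class II (30.0%) had a conservative promoter peak, against 21.4% of all coding genes, and GluProRS, which joins an enzyme of each class, had one as well. The grouping was made after the peaks were known and was not tested. GluRS-m lies just downstream of TyrRS on the same strand (3L from 16415292 to 16417177 and from 16417349 to 16419302). The conservative peak within TyrRS lay 1947 bp from the TSS of GluRS-m, which had ranked percentiles of 63.8, 67.9 and 40.7.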
